A study of Mus musculus with 9 samples.

Results

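Smooth muscle cells of the prostate stroma are recognised by a set of contractile genes, and 10 of these were followed here across 9 libraries of mouse prostate tissue. The genes were chosen by name: the smooth muscle actins Acta2 and Actg2, the heavy chain Myh11, the actin-binding proteins Tagln, Cnn1, Smtn, Lmod1 and Synpo2, the intermediate filament Des and the transcriptional coactivator Myocd. All 10 are among the 54532 genes of the count table and among the 16836 that passed the filter on low counts. The study examined loss of Srd5a2, the gene of type II 5-alpha-reductase, which converts testosterone to dihydrotestosterone. Its groups are Srd5a2-/- (KO), Srd5a2+/- (Het) and wild type (WT), with 3 libraries each. Heterozygous males were mated to C57BL6 wild-type females, and null males were obtained in the third generation. The sources used here give neither ages nor lobes, nor whether each library is a separate animal. Every p-value below therefore refers to the spread between libraries, part of which may be technical.

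In smooth muscle, thick filaments of Myh11 myosin pull on thin filaments of Acta2 and Actg2, and the force is carried through dense bodies and the desmin network. Serum response factor (SRF) turns these genes on by binding CArG boxes in their promoters, and Myocd is its smooth muscle coactivator. In the prostate, sheaths of such cells surround the glandular ducts and contract during ejaculation.

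A CArG box is CC, then 6 bases that are A or T, then GG. RefSeq promoters on GRCm38.p6, from 250 bases before to 50 bases after the start of the gene, were matched by symbol for 6 of the 10 genes (Acta2, Cnn1, Des, Smtn, Lmod1 and Synpo2). Both strands were searched, and the box reads as a box on either strand. The exact form was in 0 of these 6 windows and in 1.63% of all 32851 promoters. With any base allowed at 1 of the 6 core positions, a looser form tried only after the exact one was not found, 1 of the 6 windows held it, that of Acta2, as did 9.98% of all promoters. The Acta2 sequence is shown because it holds 2 such matches, in capitals, which begin 84 and 34 bases before the RefSeq start. It covers the 250 bases before that start, chr19:34255374-34255623 on GRCm38.p6, minus strand, 5′ to 3′.
Acta2: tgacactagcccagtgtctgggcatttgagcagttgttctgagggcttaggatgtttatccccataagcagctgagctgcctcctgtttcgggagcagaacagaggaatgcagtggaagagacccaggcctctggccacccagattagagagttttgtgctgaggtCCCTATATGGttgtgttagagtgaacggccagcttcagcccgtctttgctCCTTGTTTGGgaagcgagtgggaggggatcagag
A match describes these letters and is not a measurement of SRF binding.

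Library totals were 16233392 to 24017791 counts. Genes with a count numbered 20160, 20380 and 20476 in KO, 17804, 17242 and 16878 in Het and 20566, 19752 and 17940 in WT libraries. Every Het library thus had fewer than any KO or WT library, and the cause was not tested. Srd5a2 itself was low throughout, at 0.933, 0.511 and 1.15 CPM (counts scaled to library size) in KO libraries, 3.67, 5.19 and 2.37 CPM in Het libraries and 2.30, 5.50 and 8.81 CPM in WT libraries. The KO values lay below all others, while Het and WT overlapped. The 10 contractile genes together took 0.122% (Het library 1) to 0.761% (Het library 3) of a library's counts. Libraries Het 2, WT 1 and WT 3 had 7.26, 0.993 and 16.0 CPM of the secretory gene Sbp, against at least 34341 CPM in the other 6. The results were also computed without them, which leaves WT library 2 as the only WT library, beside Het libraries 1 and 3.

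Both smooth muscle actins, the thin-filament subunits, were abundant in every library. Acta2 (GRCm38, chr19:34241090-34255336, minus strand) stood at 1998, 1484 and 1470 CPM in KO libraries, 468, 2592 and 2197 CPM in Het libraries, and 960, 1841 and 2120 CPM in WT libraries. The KO range lay inside the WT range, and Het held both the highest and the lowest library. Actg2, the enteric-type smooth muscle actin (chr6:83512905-83536265, minus strand), had 536, 361 and 379 CPM in KO libraries, 78.5, 752 and 999 CPM in Het libraries, and 350, 668 and 934 CPM in WT libraries. Its KO and WT values overlapped only through WT library 1. The coding sequences of Acta2 and Actg2 are 84.2% identical. The sources used here do not state how reads matching both were counted.

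Myh11, the smooth muscle myosin heavy chain (chr16:14194535-14291372, minus strand), was the steadiest member across KO libraries, with 1333, 1216 and 1230 CPM. Het libraries had 233, 1861 and 2018 CPM, and WT libraries 932, 1134 and 1537 CPM. All KO values lay within the WT range, and Het spanned 8.67-fold.

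Of the thin-filament regulators, Cnn1 (calponin, a brake on myosin's ATPase; chr9:22099216-22109630, plus strand) had 989, 619 and 637 CPM in KO, 185, 1302 and 1160 CPM in Het and 477, 839 and 1058 CPM in WT libraries. Smtn (smoothelin; chr11:3517523-3540612, minus strand) had 197, 145 and 126 CPM in KO, 45.2, 233 and 195 CPM in Het and 85.3, 138 and 190 CPM in WT libraries. Lmod1 (leiomodin, an actin filament nucleator; chr1:135324807-135368065, plus strand) had 93.8, 65.2 and 61.2 CPM in KO, 15.3, 81.8 and 103 CPM in Het and 39.7, 63.8 and 81.2 CPM in WT libraries. These 3 genes shared one order at the bottom, with Het library 1 lowest and WT library 1 next. Synpo2 (synaptopodin 2, an actin-bundling protein of the Z-disc and dense body; chr3:123076519-123236149, minus strand) had 188, 146 and 105 CPM in KO, 27.5, 187 and 248 CPM in Het and 101, 124 and 149 CPM in WT libraries. Des, the muscle intermediate filament (chr1:75360329-75368579, plus strand), had 897, 707 and 440 CPM in KO, 176, 846 and 782 CPM in Het and 359, 665 and 793 CPM in WT libraries. For Synpo2 and Des the KO and WT ranges again overlapped, and Des was the only member whose highest library was a KO one.

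Tagln (transgelin or SM22-alpha, an actin-binding protein; chr9:45929619-45936058, minus strand) was low, at 15.8, 9.26 and 8.26 CPM in KO, 3.83, 17.6 and 12.1 CPM in Het and 8.78, 14.3 and 16.7 CPM in WT libraries. Those values rest on 71 to 384 counts per library, and all 3 genotypes overlapped. Exons of other genes on the opposite strand cover 67.9% of its exon bases, 62.4% under Gm48529 and 5.43% under Pcsk7. The same figure is 16.3% for Smtn, 5.86% for Des and 0% for the other 7 members. The sources used here do not state whether reads were counted by strand, so the level of Tagln is uncertain, and the part of the overlap in it was not tested.

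Myocd, the SRF coactivator (chr11:65176561-65269989, minus strand), was the least abundant member, with 4.66, 5.74 and 4.81 CPM in KO, 1.03, 9.78 and 19.1 CPM in Het and 4.34, 6.78 and 3.42 CPM in WT libraries. These correspond to 19 counts in Het library 1 and 66 to 347 in the others. The widest spread of the 10 genes, 18.6-fold, was that of Myocd, and both its extremes were Het libraries.

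**Figure D1:**
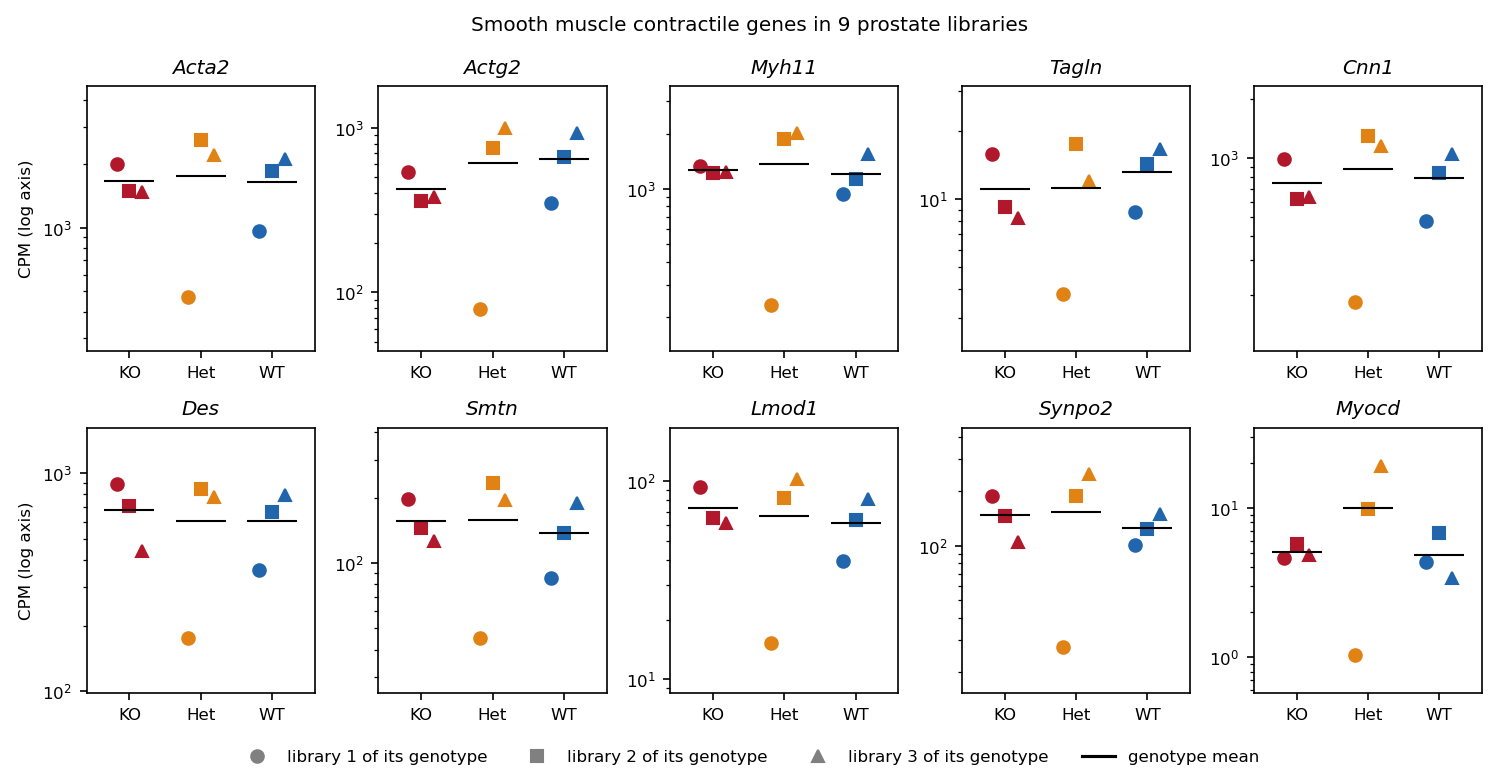
CPM of each of the 10 genes (log axis) by genotype, 1 point per library, with bars at the genotype means. Het library 1 (orange circle) is lowest in all 10 panels, and the KO and WT points overlap in every panel.

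Levels of different genes were compared per length, in FPKM. Acta2 came first with a median of 1007 FPKM over the 9 libraries, followed by Actg2 (333), Cnn1 (299), Des (186), Myh11 (158), Smtn (32.8), Lmod1 (16.3), Synpo2 (11.0), Tagln (6.03) and Myocd (0.73). Each gene exceeded the next in 9 of 9 libraries at 7 of the 9 steps. The exceptions were Actg2 over Cnn1, which held in 7 of 9 libraries, and Des over Myh11, which held in 5 of 9, so neither pair can be ordered beyond its spread. By genotype, Acta2 averaged 905 ± 157 FPKM in KO, 979 ± 631 FPKM in Het and 901 ± 337 FPKM in WT libraries (SD, n = 3 each). Tagln averaged 5.45 ± 1.96 FPKM in KO, 5.61 ± 3.49 FPKM in Het and 6.51 ± 2.03 FPKM in WT libraries (SD, n = 3 each). In every library Acta2 was 122 to 202 times as high as Tagln. As the level of Tagln is uncertain because of the exons on its opposite strand, so are its place in this order and this ratio.

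The spread of these genes lay mainly between libraries of 1 genotype. Summed over the 10 members, the level was 6253, 4758 and 4462 CPM in KO, 1234, 7882 and 7733 CPM in Het, and 3317, 5495 and 6881 CPM in WT libraries. Their means were 5158 ± 960 CPM in KO, 5616 ± 3796 CPM in Het and 5231 ± 1797 CPM in WT libraries (SD, n = 3 each), so the genotypes differed by less than the spread within any of them. The highest library exceeded the lowest 1.40-fold in KO, 6.39-fold in Het and 2.07-fold in WT. Het library 1 was lowest for 10 of 10 members, while it was lowest for 19.3% of all genes tested. WT library 1 was second lowest for 8 members, and Het library 2 or Het library 3 was highest for 9. Without Het library 1 the highest and lowest of the remaining 8 libraries differed 2.38-fold. In bulk tissue, fewer muscle cells and less of these RNAs per cell cannot be told apart.

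On the log2 CPM scale, the within-genotype SD averaged 0.99 over the 10 genes, and 0.42 without Het library 1. Its median over the members was 0.97, against 0.45 over all genes tested, and the members fell between the 69.1 percentile (Tagln) and the 84.4 percentile (Myocd) of all genes. The members' median SD was 0.33 among KO, 1.54 among Het and 0.55 among WT libraries, where all genes had 0.28, 0.50 and 0.34 in those genotypes. Myh11 had the smallest SD in KO libraries, 0.07, and Myocd the largest in Het libraries, 2.14. Differences between genotype means made up 1.1% (Cnn1) to 7.8% (Tagln) of a member's variance, with a median of 3.6%. The median over all genes tested was 24.6%. With so few libraries per genotype, means differ by library spread alone, so such a share is sizeable even where genotype has no effect. The value over all genes is therefore not a measure of a genotype effect. Nor do the lower values of the members show that they depend less on genotype than other genes.

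**Figure D2:**
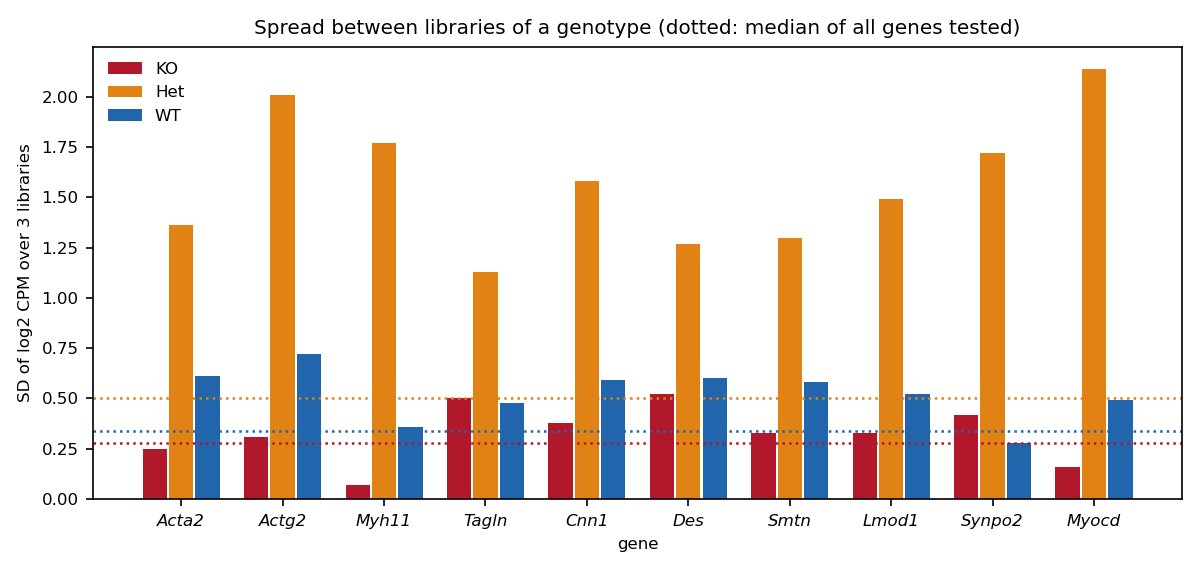
SD of log2 CPM over the 3 libraries of each genotype for the 10 genes; dotted lines mark the median over all genes tested in that genotype. Het bars run from 1.13 (Tagln) to 2.14 (Myocd), above the KO and WT bars of every gene.

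The 10 genes moved together across libraries, Myocd least closely. In the members' mean log2 CPM, each gene centred on its mean over libraries, Het library 1 stood at -1.96 and the others at -0.47 to 0.80. In WT library 3, Myocd had its lowest WT value (3.42 CPM) and every other member its highest. The root mean square distance between a gene's centred log2 CPM profile and the members' mean profile over 9 libraries was 0.117 for Cnn1, the smallest of all tested genes. It was 0.147 for Lmod1, 0.149 for Acta2 and 0.183 for Myh11. The largest were 0.352 for Actg2 and 0.545 for Myocd, ranks 122 and 664 from the smallest among all tested genes. The median over all tested genes was 0.91. Each member contributes to the mean profile, so these values are a description. The 8 non-members closest to it were Myl9 (0.130), the regulatory myosin light chain, Cald1 (0.134), caldesmon, Adcy5 (0.138), an adenylate cyclase, Cav1 (0.145), the caveolar coat protein, Ckb (0.150), the brain-type creatine kinase, Pdlim7 (0.159), a PDZ and LIM domain protein of the actin cytoskeleton, Pgm5 (0.169), an adherens junction protein of muscle, and Tmem252 (0.184). Cav1, for example, had 208, 169 and 151 CPM in KO, 48.0, 240 and 235 CPM in Het and 110, 174 and 179 CPM in WT libraries. As they were chosen for this profile, in which Het library 1 is lowest, their low value there is no separate result.

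Markers of other cell types were summed per library to see which of them moved with the contractile genes. Het library 1 stood at 0.158 times the mean of Het libraries 2 and 3 for the 10 members. The same ratio was 0.129 for 7 pericyte markers, some of which smooth muscle also expresses, 0.231 for 23 skeletal muscle markers, 0.426 for 8 nerve and Schwann cell markers, 0.452 for 5 basal epithelial markers and 0.0279 for 9 seminal vesicle genes. Acta1, the skeletal actin, made up 88.8% of the skeletal muscle sum in Het library 1. Of the 22 skeletal muscle markers with counts, 10 were below both other Het libraries and 6 above both. Without Acta1 the ratio was 0.225. Mbp made up 57.6% of the nerve and Schwann cell sum there, and without Mbp the ratio was 0.223. The ratio was 1.22 for 10 general epithelial markers, of which 7 were above and 2 below both other Het libraries. For 12 fibroblast markers it was 1.01, but Col6a3, a collagen VI chain, made up 49.6% of the Het library 1 sum. Of the 12 markers, 7 were below both other Het libraries and 4, Col6a3 among them, above both. Without Col6a3 the fibroblast sums were 405, 720 and 614 CPM in the 3 Het libraries, a ratio of 0.607. Endothelial markers (12 genes) gave 0.753 and leukocyte markers (8 genes) 0.943. In Het library 1 the fibroblast markers were thus mixed, and their sum without Col6a3 fell by less than that of the contractile genes. Most general epithelial markers were not low there. The part of tissue composition or dissection in this was not tested.

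Skeletal muscle, which adjoins the urethra, can also carry Des. Its 23 markers summed to 871, 7333 and 1299 CPM in KO, 150, 708 and 596 CPM in Het and 357, 691 and 1506 CPM in WT libraries. KO library 2 was highest. The fast myosin Myh4 was at 1077 CPM there and at 0 counts in 5 libraries (all 3 Het, WT 1 and WT 2). Des in that library, 707 CPM, lay between the values of the other KO libraries. Of the 7 cardiac markers, 2 were at 0 in all libraries and the sum was 12.1 to 60.0 CPM.

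**Figure D3:**
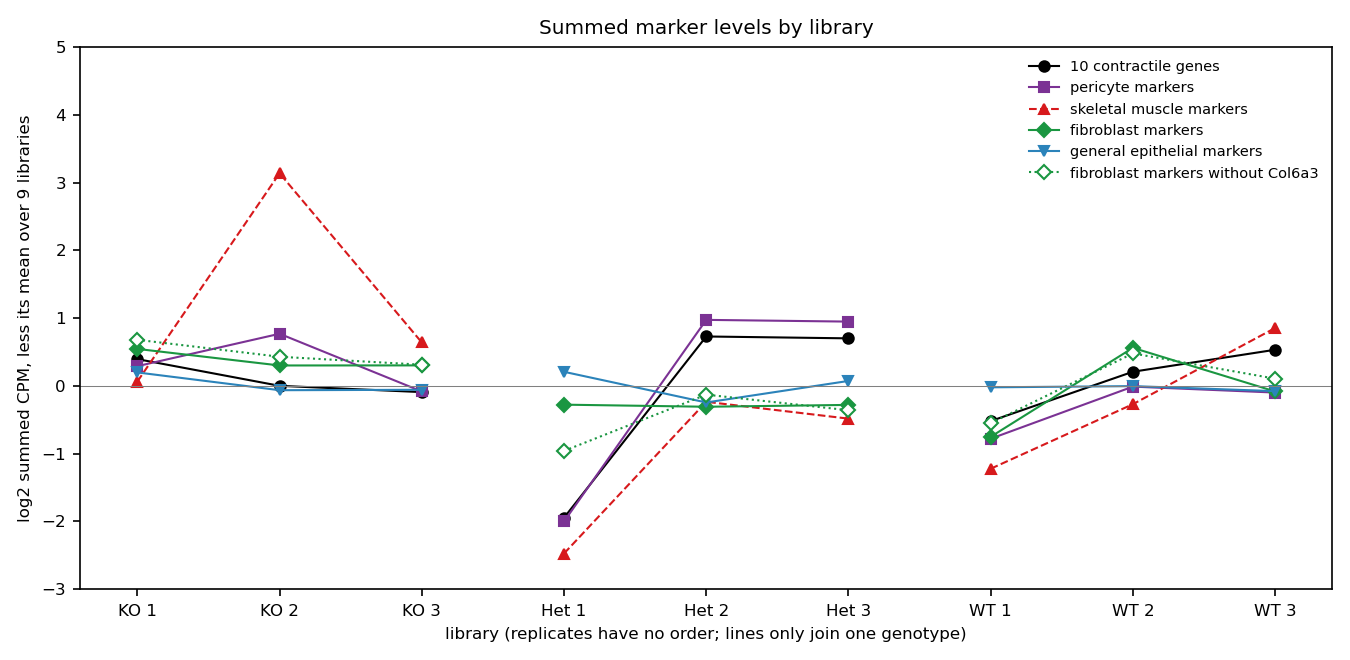
Summed CPM of the 10 contractile genes and of 4 marker lists in each library, one of them also without its largest gene, as log2 less the list's mean over 9 libraries. The contractile and pericyte sums are lowest in Het 1, the epithelial sum is not, the fibroblast sum is low there only without Col6a3 (open diamonds, 405 CPM), and the skeletal muscle sum peaks in KO 2.

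The comparison of KO with WT addresses whether loss of Srd5a2 changed these genes. None of the 10 was called at an adjusted p under 0.05 (edgeR quasi-likelihood test, Benjamini-Hochberg over all genes tested), with a background of 0% of genes called. By an unadjusted p under 0.05 there were 0 members and 601 of all genes, and the smallest p of a member was 0.448 (Actg2). DESeq2 called 14 genes (0.0833%) and 0 members, and limma voom 0 genes. The log2 fold changes had a median of 0.07, against 0.006 over all genes, 7 being positive and 3 negative. With the skeletal muscle score as covariate all 10 were negative (median -0.41), and without WT library 1 the count was 2 positive and 8 negative (median -0.09). That score is the centred mean log2 CPM of the tested skeletal muscle markers, Acta1 among them. It was 1.62, 5.37 and 2.63 in KO, -3.15, -1.74 and -1.76 in Het, and -2.72, -2.31 and 2.07 in WT libraries. All KO scores lay above all Het scores and above those of WT libraries 1 and 2. Fits with this score therefore cannot fully separate it from genotype. In the fit without covariate and with all libraries, Actg2 was lowest at -0.61 (SE 0.77, 95% interval -2.40 to 1.17), ahead of Tagln at -0.25. Lmod1 was highest at 0.25 (SE 0.60, interval -1.13 to 1.63). Acta2 stood at 0.01 (SE 0.55, interval -1.25 to 1.27) and Myh11 at 0.07 (SE 0.63, interval -1.39 to 1.52). The SE of the members was 0.50 to 0.77, against a median of 0.37 over all genes, and their intervals were 2.26 to 3.57 log2 units wide, so a level 2-fold lower in KO lay within the interval of every member, and one 2-fold higher within that of all but Tagln. For 0 of 10 members did the KO and WT libraries fail to overlap, whereas 14.2% of all genes tested showed no overlap.

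Between Het and WT, 0 members were called with a background of 0%, and DESeq2 called 205 genes (1.22%) with 0 members, limma voom 0 genes. At an unadjusted p under 0.05 there were 0 members and 1522 of all genes. The members' median was 0.14, against 0.00 over all genes. Myocd had the highest log2 fold change, 1.04 (SE 0.76, interval -0.67 to 2.75, edgeR adjusted p = 0.7195), Tagln the lowest, -0.24 (SE 0.50), and Acta2 stood at 0.10 (SE 0.55). No member separated the Het from the WT libraries, compared with 13.3% of all genes. Single libraries decide the direction here. The median became -0.24 without Het library 2, -0.21 without Het library 3 and -0.11 without WT library 1, and Myocd stood at 0.16 without Het library 3. Without Het library 1, leaving 2 Het libraries, 10 of 10 members were positive, from 0.16 (Tagln) to 1.57 (Myocd), with a median of 0.61. Then 3 members and 18.7% of all genes had an unadjusted p under 0.05, 0 members were called, and the smallest edgeR adjusted p was 0.0829 (Myocd), while 258 genes (1.47% of 17542) were called in all.

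Between KO and Het, 0 members were called with a background of 0%, and DESeq2 called 169 genes (1.01%) with 0 members, limma voom 0 genes. At an unadjusted p under 0.05 there were 0 members and 1048 of all genes. The median was -0.08, against 0.018 over all genes, with 2 members positive and 8 negative. Under limma voom 9 were positive (median 0.25), and with plain library totals 7 (median 0.05). Myocd was lowest at -0.98 (SE 0.76, interval -2.69 to 0.74), Actg2 followed at -0.52 (SE 0.77), and Des was highest at 0.18 (SE 0.56). No member separated KO from Het libraries, against 11.9% of all genes. Without Het library 3, Myocd stood at -0.09 and 9 of 10 members were positive (median 0.14). The median was 0.25 without Het library 2 and 0.07 without KO library 3. Without Het library 1 all 10 were negative, from -1.51 (Myocd) to -0.25 (Des), with a median of -0.55. Then 5 members and 14.0% of all genes had an unadjusted p under 0.05 and 0 members were called, the smallest edgeR adjusted p being 0.176 (Myocd), and 18 genes (0.103%) were called in all. The same WT, Het and KO libraries serve in several of these comparisons, so their values are not independent.

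**Figure D4:**
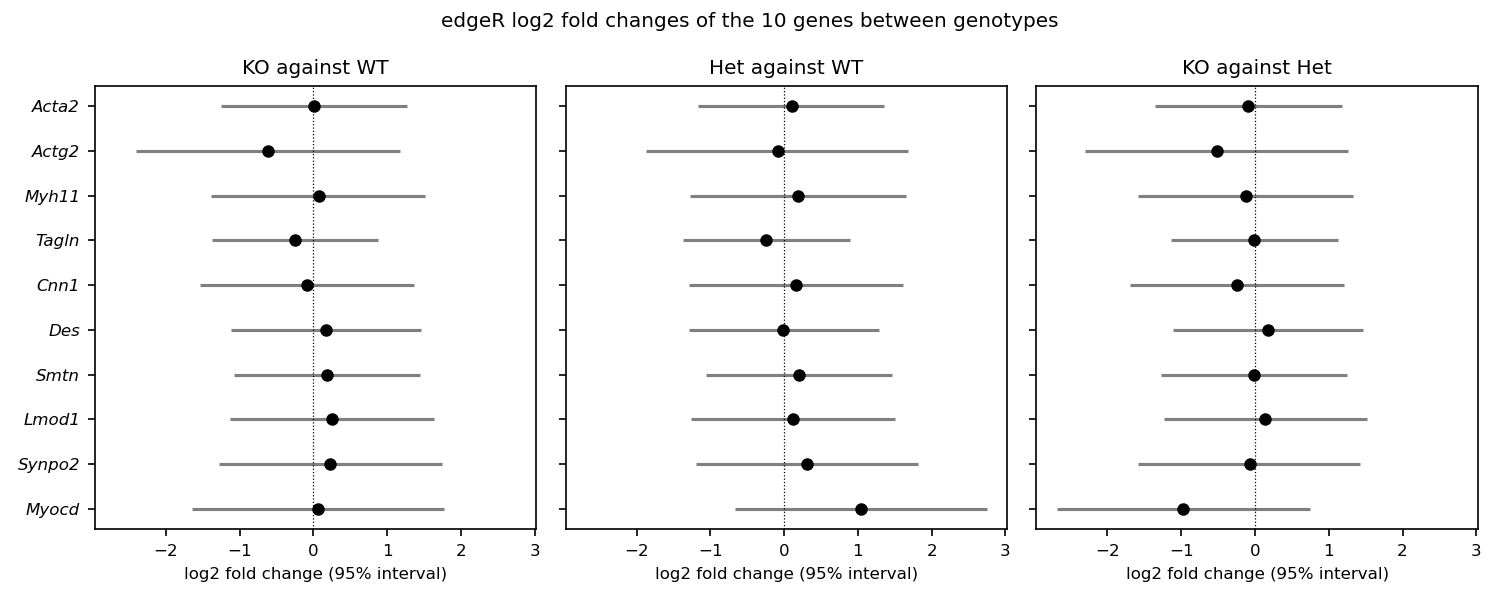
Log2 fold changes of the 10 genes with 95% intervals for the 3 pairs of genotypes. All 30 intervals include 0; the points farthest from it are Myocd at 1.04 and -0.98 and Actg2 at -0.61.

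Ratios between members within a library do not depend on library scaling. The ratio of Acta2 to Actg2 FPKM was 3.26, 3.60 and 3.39 in KO, 5.21, 3.01 and 1.92 in Het, and 2.40, 2.41 and 1.98 in WT libraries. All KO ratios lay above all WT ratios, and the Het ratios spanned both. The mean log2 ratio was 1.97 in KO and 1.37 in WT libraries, a difference of 0.60, with a two-sided exact permutation p of 0.1, the smallest that 3 against 3 libraries allow. Of the 45 pairs of members, 12 (26.7%) had ratios without overlap between KO and WT, against 14.3% of all pairs of 13950 tested genes with a count in every library. Of these 12, 5 set Actg2 against Acta2, Cnn1, Des, Smtn or Lmod1, and 4 set Tagln against Des, Smtn, Lmod1 or Synpo2, with Actg2 or Tagln the relatively lower gene in KO each time. The other 3 were Acta2 and Cnn1 to Lmod1 and Cnn1 to Smtn. The 4 pairs with Tagln carry the uncertainty of its level. Between Het and WT it was 3 of 45 pairs (6.67%), against 13.4% of all gene pairs. Pairs share genes, and the ratio of Acta2 to Actg2 was chosen after its values were seen. Any ratio without overlap between KO and WT has an exact permutation p of 0.1 by construction. The test could thus not pass 0.05 even before adjustment over the 45 pairs, and it decides nothing here.

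**Figure D5:**
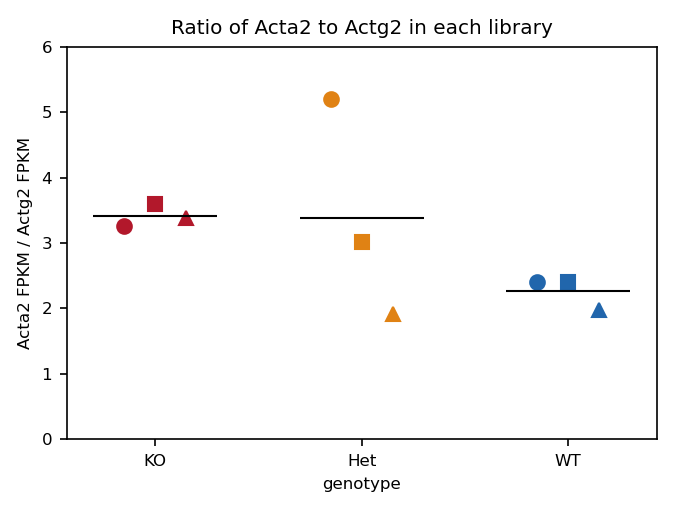
Acta2 FPKM divided by Actg2 FPKM in each library, by genotype, with bars at the means. The 3 KO ratios (3.26 to 3.60) lie above the 3 WT ratios (1.98 to 2.41), and Het runs from 1.92 to 5.21.

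Other genes of contraction were taken from 5 lists by role, with 92 genes tested. In each of the 3 comparisons 0 of the 92 were called by edgeR. Positive log2 fold changes numbered 73 for KO against WT, 70 for Het against WT, and 51 for KO against Het. The median log2 fold change over all genes tested was 0.006, 0.00 and 0.018 in these comparisons. Many of these genes vary together across libraries, so their signs are not independent. DESeq2 called 1 of the 92, in KO against WT, beside 0.0833% of all genes. Without Het library 1, edgeR called 3 list genes as higher in Het than in WT, beside 1.47% of all genes called. Among the 3 were Mylk (0.99, adjusted p = 0.0406) and Ppp1r12a (0.83, adjusted p = 0.0380). These were chosen after their values were seen. Mylk, the myosin light chain kinase, had 586, 568 and 534 CPM in KO, 106, 1023 and 1152 CPM in Het and 445, 506 and 686 CPM in WT libraries. Ppp1r12a, the targeting subunit of myosin phosphatase, had 132, 119 and 125 CPM in KO, 57.6, 226 and 226 CPM in Het and 113, 115 and 152 CPM in WT libraries. In both genes, Het libraries 2 and 3 lay above every KO and WT library and Het library 1 below.

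The 20 genes of light chains, tropomyosins and contraction control had median log2 fold changes of 0.07 for KO against WT, 0.18 for Het against WT, and -0.11 for KO against Het, and 16 of 20 were lowest in Het library 1. The smallest p belonged to Rock2, a kinase that inhibits myosin phosphatase, at -0.49 in Het against WT (SE 0.21, edgeR adjusted p = 0.5325). Ppp1cb, the catalytic subunit of myosin phosphatase, stood at -0.33 in KO against Het (SE 0.18) and Cnn2, a calponin of many cell types, at 0.52 in KO against WT (SE 0.30). Of the 22 genes of dense bodies, dense plaques and the membrane skeleton, 19 were lowest in Het library 1, with medians of 0.17, 0.17 and 0.07 in the same order. Here Vcl (vinculin) had 0.67 in Het against WT (SE 0.34), Ldb3, a Z-disc protein, 1.90 in KO against WT (SE 1.03) and Nexn, an actin-binding protein, 0.57 in KO against WT (SE 0.33). Ldb3 reached 74.5 CPM in KO library 2, which also had the most skeletal muscle RNA, against at most 19.1 CPM in any other library, and without that library Ldb3 stood at 0.32 and Nexn at 0.26 in KO against WT.

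Among 21 tested genes of membrane excitation, calcium handling and receptors, 14 were lowest in Het library 1, and the medians were 0.39, 0.23 and 0.05. Chrm3, the muscarinic receptor that drives smooth muscle contraction, had 6.97, 8.98 and 19.1 CPM in KO, 8.59, 20.5 and 18.5 CPM in Het and 6.64, 4.61 and 6.84 CPM in WT libraries. The Het values lay above the WT values (log2 fold change 1.39, SE 0.45, edgeR adjusted p = 0.4317). Chrm3 was named for its small p, and 13.3% of all genes tested showed no overlap between Het and WT. Cacnb2, a calcium channel subunit, stood at -0.74 in KO against Het (SE 0.29, edgeR adjusted p = 0.7352), and at -0.31 with the skeletal muscle score as covariate.

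Regulators of smooth muscle genes (SRF, myocardin-related and other factors, 27 genes in the table) varied little between the Het libraries in their summed level. Of the 27, 15 were below both other Het libraries in Het library 1 and 6 above both. Of 25 tested, 7 were lowest of all 9 libraries there, and the sum over the 27 genes there was 0.891 times the mean of Het libraries 2 and 3. They summed to 617, 738 and 677 CPM in KO, 590, 641 and 684 CPM in Het and 509, 551 and 577 CPM in WT libraries. In KO against WT, 23 of 25 had a positive log2 fold change, with a median of 0.29 against 0.006 over all genes, and 0 were called. Klf5, a growth-associated regulator of smooth muscle that epithelium also expresses, had 26.2, 41.3 and 30.2 CPM in KO, 30.5, 22.0 and 26.2 CPM in Het and 6.32, 14.7 and 19.3 CPM in WT libraries. KO and Het lay above WT in every library (KO against WT 1.27, SE 0.36, edgeR adjusted p = 0.9996). Klf5 was named for its small p, so this is no separate result. Of all genes tested, 14.2% showed no overlap between KO and WT and 13.3% none between Het and WT. Mef2c, a muscle transcription factor, was at 2.98 (SE 0.85, edgeR adjusted p = 0.9996), with 50.1 CPM in KO library 2 and at most 6.95 CPM elsewhere. Notch3, the mural cell Notch receptor, was at 0.86 (SE 0.33, edgeR adjusted p = 0.9996). With the skeletal muscle score as covariate these became 0.60 for Klf5, 0.60 for Mef2c and 0.23 for Notch3, and without KO library 2 they were 1.06, 1.21 and 0.58.

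The other actins were checked because their coding sequences resemble those of the members. Acta1, the skeletal actin, had 580, 1847 and 628 CPM in KO, 134, 627 and 528 CPM in Het and 330, 660 and 997 CPM in WT libraries. The remaining 22 skeletal muscle markers summed to 291, 5485 and 671 CPM in KO, 16.8, 81.4 and 67.7 CPM in Het and 27.2, 31.8 and 509 CPM in WT libraries. Acta1 thus exceeded all of them together in 7 of the 9 libraries. Its coding sequence is 85.4% identical to that of Acta2 and 84.9% identical to that of Actg2. The longest identical run between the coding sequences of Acta1 and Acta2 was 29 bases. Any part of shared reads in the level of Acta1 was not tested. Acta1 stood at 1.25 in KO against Het (SE 0.70, edgeR adjusted p = 0.9116), at 0.51 without KO library 2 and at 0.82 without Het library 1. Actc1, the cardiac actin, was at 59.5 CPM in KO library 2 and 0 to 11.4 CPM elsewhere (5.24 in KO against Het, SE 1.86, edgeR adjusted p = 0.7188). The non-muscle Actg1 varied least, from 642 to 1180 CPM, with 0.14 in Het against WT (SE 0.22), and the non-muscle Actb had its lowest value in Het library 1 (752 CPM) and its highest in Het library 2 (1561 CPM).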

How the data were processed

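Genotypes came from the library names in the labels, and replicate numbers follow accession order and pair nothing. Per the labels' protocols, libraries were polyA-enriched; the submitters' processing notes name GRCm38 (mm10) as the build. The sources used here name no aligner, counter or strand setting. The authors deposited whole-number read counts per gene and FPKM values per library; their FPKM carry a size-factor scaling (0.907 to 1.10 relative to plain totals). FPKM served only to compare levels between genes and as ratios within a library.

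Counts of all 9 libraries were fitted in 1 edgeR 4.0.16 quasi-likelihood model (robust, R 4.3.3) with a genotype term alone, using TMM scaling and the filterByExpr rule. A gene was called at a Benjamini-Hochberg adjusted p under 0.05 over 16836 genes. SE is the absolute log2 fold change over the square root of F. CPM use TMM-scaled totals. The fit was tested on simulated data. Alternatives were DESeq2 1.42.0, limma voom 3.58.1, other scalings and filters, a skeletal muscle score as covariate and left-out libraries. Replicates of a genotype differed beyond counting noise (chi-square per degree of freedom of at least 40.0), so none was merged. Actin coding sequences are the longest open reading frames of GENCODE vM21 transcripts, aligned with Biopython 1.88; promoters are from RefSeq GRCm38.p6.

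Members and lists were chosen with earlier results of these data known. The text names all members, Srd5a2, the 3 genes of smallest p in each list, the 8 non-members closest in profile and the actins; others are said to be chosen after their values were seen. Some genes that this rule covers are not reported here.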

Additional observations from a re-analysis of the deposited data

How the results depend on the processing

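None of the 10 genes was called in any comparison under any of the 21 alternatives. Over all 30 log2 fold changes of the members, 109 of 630 alternative values changed sign and 0 crossed the threshold; they ran from -1.21 (Actg2, skeletal muscle score as covariate) to 0.50 (Lmod1, without WT library 3) in KO against WT, from -0.84 (Tagln, without the 3 libraries low in Sbp) to 1.57 (Myocd, without Het library 1) in Het against WT, and from -1.51 (Myocd, without Het library 1) to 0.60 (Lmod1, without Het library 3) in KO against Het. With the skeletal muscle score as covariate, KO against WT became -0.47 for Acta2, -0.51 for Myh11, -0.22 for Lmod1, -1.10 for Ldb3 and -0.06 for Nexn, and KO against Het became -0.52 for Des, -1.09 for Actc1 and -0.93 for Acta1. Without the 3 libraries low in Sbp, WT library 2 alone stood for WT, so values of that setting against WT rest on this library. Acta2 then became -0.16 in KO against WT and -0.47 in Het against WT. Under limma voom Acta2 became -0.17 in Het against WT and Actg2 0.10 in KO against Het. The median over the 10 genes turned to -0.41 with that score and to -0.06 without the libraries low in Sbp in KO against WT, to -0.21 under limma voom and -0.26 without the libraries low in Sbp in Het against WT, and to 0.25 under limma voom, 0.05 with plain library totals and 0.24 without the libraries low in Sbp in KO against Het, where the score gave -0.72. The cause was not tested. The score was higher in every KO than in every Het library, so fits with it cannot fully separate skeletal muscle from genotype.

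Leaving out single libraries moved Acta2 between -0.26 and 0.23 and Myh11 between -0.08 and 0.28 in KO against WT, Acta2 between -0.33 and 0.54, Tagln between -0.75 and 0.16 Myocd between 0.16 and 1.57 and Actg1 between -0.05 and 0.35 in Het against WT, and Myocd between -1.51 and -0.09, Actg2 between -1.04 and 0.04 and Des between -0.25 and 0.51 in KO against Het. The median over the members then ran from -0.09 to 0.25, from -0.24 to 0.61 and from -0.55 to 0.25 in those comparisons. The fold between highest and lowest library was then 2.38 to 6.39 and the mean within-genotype SD 0.42 to 1.08, the lower values without Het library 1. All genes called numbered 0 to 1 in KO against WT, 0 to 258 in Het against WT and 0 to 18 in KO against Het, and list genes called in Het against WT 0 to 3. DESeq2 called 14, 205 and 169 genes in these comparisons and 1 list gene in KO against WT. Only the 2 genotypes compared gave 1 gene in KO against WT, and no low-count filter gave 2 in KO against Het. Counts without the 3 libraries low in Sbp are not given, as WT library 2 alone then stood for WT. No paired analysis was possible because the labels give no replicate numbers. With 3 libraries per genotype and this spread, changes smaller than the intervals given were not detectable.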
